A study of Mus musculus with 7 samples.

Results

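The expression of 9 immunosuppressive enzyme genes was examined in 7 subcutaneous (s/c) mouse pancreatic ductal adenocarcinoma (PDA) tumors. The genes were taken by symbol from a list of arginine, tryptophan, prostaglandin and adenosine enzymes. All 9 were found, each in 1 of the 22629 rows of the count table, and all 9 had enough reads to be tested, with 57 to 17245 counts per tumor. Every tumor was formed in a C57BL/6 host with 1242 KPC cells, a mouse PDA line, that carried the control guide sgScramble, and was harvested 2 weeks after inoculation. The 3 sgScramble tumors, numbers 1, 4 and 5, were compared with 4 tumors, numbers 15, 16, 18 and 2, formed with sgScramble cells that also expressed icOVA, an ovalbumin kept in the cytoplasm, to ask how an added antigen changed the tumors. Per the study's methods, icOVA was placed under a doxycycline-inducible promoter by lentivirus, the cells were sorted and single-cell cloned, and the antigen was induced by doxycycline in the food. The study also describes s/c tumors of icOVA-inducible cells grown with or without doxycycline. The labels do not say whether the sgScramble tumors here were of that kind. They also do not say whether the hosts of the sgScramble tumors received doxycycline or whether those cells were cloned. The methods also give a larger number of injected cells for ovalbumin-inducible s/c tumors than the default for s/c tumors. The icOVA vector they name carries a GFP sequence as well. Antigen and whichever of GFP, cell number, doxycycline and cloning also differed therefore cannot be told apart. OVA had 85 to 151 counts in the sgScramble tumors and 3413 to 10750 in the icOVA tumors, the direction the labels give. Some OVA reads were thus also present in the sgScramble tumors, and their source was not tested.

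These enzymes restrain T cells by using up a nutrient that T cells need or by releasing a metabolite that acts on receptors of T cells. Arginase-1 (Arg1) and inducible nitric oxide synthase (Nos2) both consume arginine, to ornithine and urea or to nitric oxide and citrulline, and are known from the macrophages and myeloid suppressor cells of tumors. Indoleamine 2,3-dioxygenase (Ido1) opens the ring of tryptophan to begin the kynurenine pathway, and the secreted oxidase Il4i1 converts phenylalanine and tryptophan to keto acids. The cyclooxygenases Ptgs1 and Ptgs2 make prostaglandin H from arachidonic acid, and Ptges, microsomal prostaglandin E synthase, completes prostaglandin E. Entpd1 (CD39) removes phosphates from extracellular ATP and ADP to give AMP, from which Nt5e (CD73) releases adenosine.

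The group comparison went in both directions within the prostaglandin genes, so the sequences before the starts of those 3 genes are shown first. They are the 250 bases 5′ of the RefSeq start on GRCm38.p6, in the direction of transcription, with capitals for each match to the GC box GGGCGG, a site of Sp-family factors, on either strand.
Ptges (chr2:30903298-30903547, minus strand): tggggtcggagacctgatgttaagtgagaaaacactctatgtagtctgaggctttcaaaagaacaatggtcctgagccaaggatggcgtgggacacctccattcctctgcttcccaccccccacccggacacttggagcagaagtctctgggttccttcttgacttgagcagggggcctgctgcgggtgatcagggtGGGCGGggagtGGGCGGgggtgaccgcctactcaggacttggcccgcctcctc
Ptgs2 (chr1:150099781-150100030, plus strand): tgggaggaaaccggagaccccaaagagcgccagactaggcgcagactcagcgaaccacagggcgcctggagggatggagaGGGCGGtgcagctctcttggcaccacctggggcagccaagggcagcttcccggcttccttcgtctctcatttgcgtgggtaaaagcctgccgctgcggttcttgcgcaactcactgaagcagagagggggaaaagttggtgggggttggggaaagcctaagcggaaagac
Ptgs1 (chr2:36230176-36230425, plus strand): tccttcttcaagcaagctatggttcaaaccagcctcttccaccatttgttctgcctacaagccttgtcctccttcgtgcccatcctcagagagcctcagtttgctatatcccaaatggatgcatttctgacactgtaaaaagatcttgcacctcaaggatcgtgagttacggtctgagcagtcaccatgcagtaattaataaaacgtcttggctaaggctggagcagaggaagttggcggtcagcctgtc
The Ptges window held 2 GC boxes, whose first bases lay 53 and 42 bases before the start, the Ptgs2 window held 1, and the Ptgs1 window held 0. A GC box was present in 32.7% of 32841 windows of the same length. G and C made up 59.6% of the Ptges window, 61.6% of the Ptgs2 window and 48.0% of the Ptgs1 window, against a median of 52.4% over all windows. The TATA box TATAAA, the cyclic AMP half-site CGTCA, the AP-1 site TGANTCA, the interferon-stimulated response element, which has 10 letters, the gamma-activated site TTCNNNGAA and a 10-base NF-kB site were not found in these 3 windows on either strand, and they were present in 12.4%, 17.8%, 6.75%, 2.98%, 7.02% and 7.25% of all windows. RefSeq windows were matched for 6 of the 9 genes. Those of Arg1, Nos2 and Ido1 were not. In the windows not printed, Nt5e had 4 GC boxes, Il4i1 had 1, and Entpd1 had 0 in each of its 2 windows. The windows printed were chosen after the group comparison, and a link between GC boxes and direction was not tested.

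Arg1 and Ido1 were the most abundant of the 9 transcripts in both groups when levels were set per length, as CPM, the counts relative to the scaled library total, per kilobase of annotated exon. In sgScramble tumors Arg1 had 133 ± 16.3 and Ido1 107 ± 32.1 CPM per kilobase (SD, n = 3), and in icOVA tumors they had 184 ± 40.0 and 179 ± 26.1 CPM per kilobase (SD, n = 4). Averaged over the 7 tumors, Arg1 lay above 98.6% and Ido1 above 98.4% of all tested genes. Nos2 followed with 32.8 ± 8.21 CPM per kilobase in sgScramble tumors and 70.5 ± 18.1 in icOVA tumors, and then Ptgs2 with 26.5 ± 5.97 and 38.6 ± 12.2. Nt5e and Entpd1 came next at 16.4 ± 2.74 and 12.0 ± 2.72 CPM per kilobase in sgScramble tumors, and in icOVA tumors they stood in the opposite order, with 17.5 ± 5.39 for Nt5e and 19.9 ± 3.06 for Entpd1. Ptges and Ptgs1 came after these, at 5.41 ± 0.966 and 4.90 ± 1.03 CPM per kilobase in sgScramble tumors. Averaged over the 7 tumors, they lay above 64.7% and 46.6% of all tested genes. Il4i1 had the lowest value, at 0.609 ± 0.172 in sgScramble tumors and 1.21 ± 0.660 in icOVA tumors. Of its 4080 annotated exon bases, 3423 overlap exons of Tbc1d17. How reads there were counted is not stated, so the place of Il4i1 in the order is not settled either. Neighbors whose ranges overlapped in both groups, and whose order is therefore not settled, were Arg1 and Ido1, Nos2 and Ptgs2, and Nt5e and Entpd1. The ranges of Ptges and Ptgs1 overlapped in the sgScramble tumors but not in the icOVA tumors, where they had 9.76 ± 1.12 and 2.93 ± 0.397 CPM per kilobase. In the icOVA tumors the ranges of Nt5e and Ptges also overlapped.

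In icOVA tumors, Nos2 and Ptges rose and Ptgs1 fell, and the other 6 genes did not pass the test. Relative to the leukocyte gene Ptprc, which itself rose, most genes moved down together, and Ptges turned below 0 with them. Genes were compared by the quasi-likelihood test of edgeR, and p values were adjusted after Benjamini and Hochberg across the 17489 genes with enough reads, with a threshold of 0.05. The labels list each tumor as its own sample but do not say that each came from its own mouse, so p values measure the spread between these tumors. Of the 9 genes, 3 were called, against 5.90% of all genes tested, with 2 higher, against 3.36%, and 1 lower, against 2.54%. The log2 fold change was above 0 for 8 of the 9 genes, with a median of 0.73, against -0.0050 over all genes tested. An unadjusted p below 0.05 was found for 7 of the 9, and for 27.2% of all genes tested. In 5 of the 9 the CPM values of the groups did not overlap, 4 with every icOVA tumor higher and 1 with every icOVA tumor lower, against 24.7% of all genes tested. A transcript level in a whole tumor cannot tell more cells of a type from more RNA per cell.

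**Figure D1:**
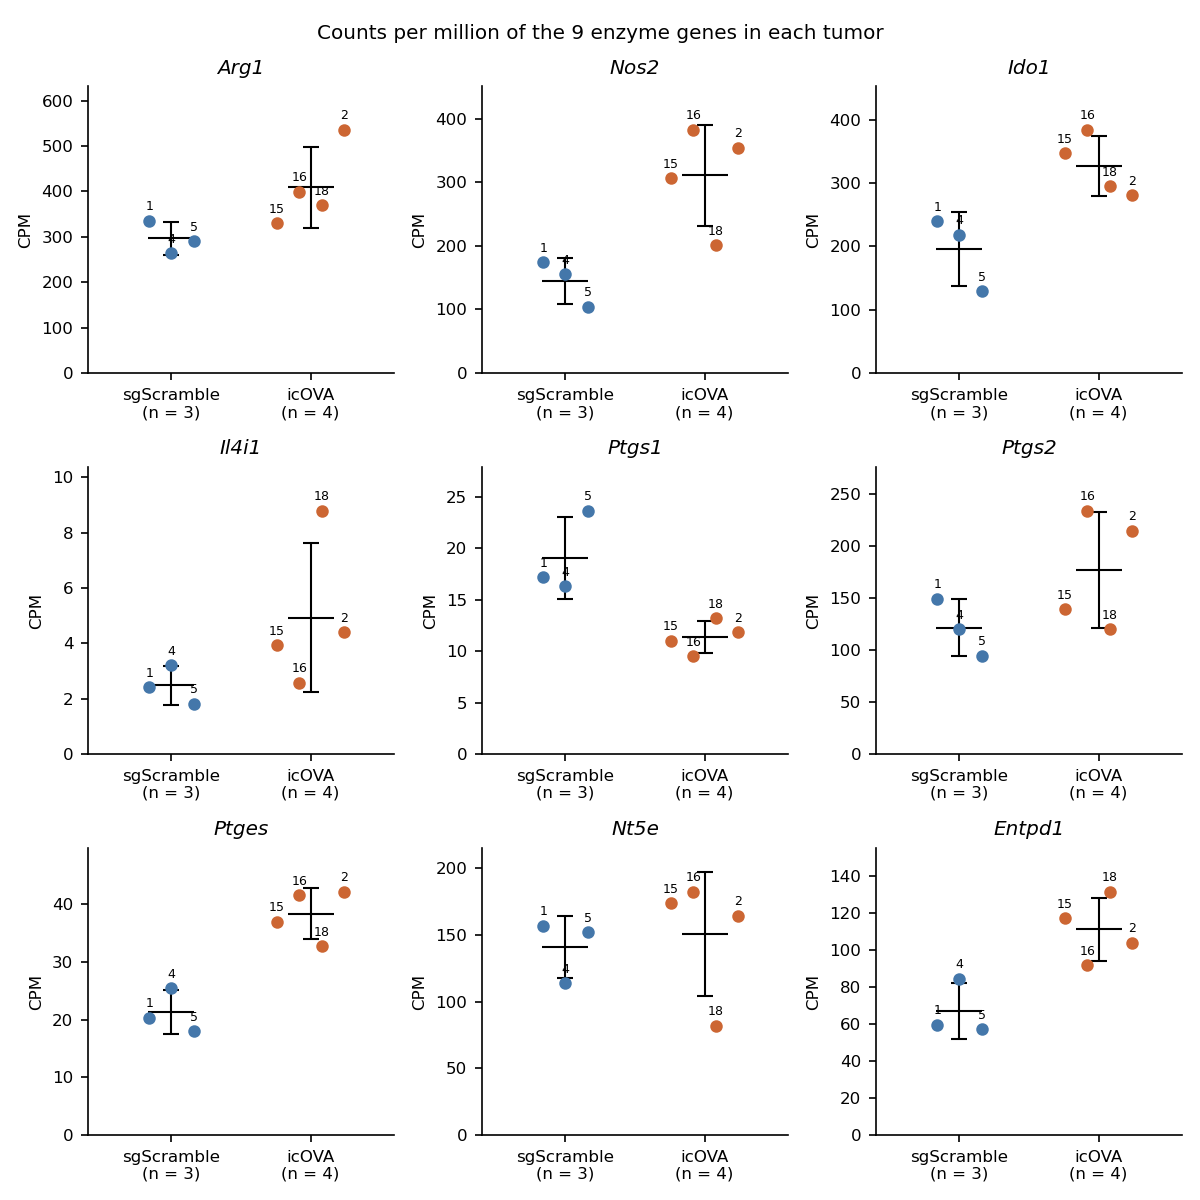
CPM of each of the 9 enzyme genes (y axis, from 0) in the 3 sgScramble tumors (blue) and the 4 icOVA tumors (orange), with the tumor number beside each point and the group mean ± SD in black. The groups did not overlap for Nos2, Ido1, Ptges and Entpd1, which were higher in icOVA tumors, and for Ptgs1, which was lower.

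Among the arginine enzymes, Nos2 rose and Arg1 did not pass the test. Nos2 had 174, 155 and 104 CPM in sgScramble tumors 1, 4 and 5 and 306, 383, 201 and 354 CPM in icOVA tumors 15, 16, 18 and 2. All 4 icOVA tumors were above every sgScramble tumor, with tumor 18 the nearest to them. Nos2 had a log2 fold change of 1.10 (± 0.25 SE), a 2.15-fold rise (edgeR adjusted p = 0.0469). Arg1 had 336, 264 and 291 CPM in the sgScramble tumors and 330, 400, 370 and 536 CPM in the icOVA tumors. The groups overlapped, since icOVA tumor 15 was below sgScramble tumor 1, and icOVA tumor 2 was the highest. Arg1 had a log2 fold change of 0.46 (± 0.17 SE, edgeR adjusted p = 0.135). Leaving out single tumors ended the call of Nos2 in 6 of 7 fits, where its log2 fold change stayed between 0.92 and 1.26, and it was called without icOVA tumor 18 (1.27, edgeR adjusted p = 0.0240).

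The ratio of Arg1 to Nos2, 2 enzymes that use the same amino acid, was lower in the icOVA tumors on average, but the difference did not pass its test. The log2 ratio of CPM was 0.95, 0.76 and 1.48 for sgScramble tumors 1, 4 and 5 and 0.11, 0.06, 0.88 and 0.60 for icOVA tumors 15, 16, 18 and 2. It was below every sgScramble tumor in 3 of the 4 icOVA tumors, and the difference was -0.65 (two-sided exact permutation p = 0.114, 0.229 after Benjamini-Hochberg adjustment over 4 ratios). With 3 against 4 tumors this test cannot give a p below 0.0571. Arg2, the mitochondrial arginase, had 5.75, 5.44 and 7.03 CPM in the sgScramble tumors and 7.13, 8.19, 5.32 and 10.6 CPM in the icOVA tumors. The log2 ratio of Arg1 to Arg2 was 5.60 ± 0.25 (SD, n = 3) in sgScramble tumors and 5.72 ± 0.26 (SD, n = 4) in icOVA tumors, and these overlapped (difference 0.12, two-sided exact permutation p = 0.629, adjusted over the ratios 0.629).

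Of 17 further genes of arginine use and supply, 15 were in the table and tested, and 0 were called higher and 1 lower, near the 5.90% called over all genes, with a median log2 fold change of 0.24 (edgeR). At an unadjusted p below 0.05 there were 5, near the 27.2% over all genes, while DESeq2 called 1 higher and 1 lower and limma-voom called 0. Of all 17489 genes tested, DESeq2 called 1558 higher and 1278 lower, and limma-voom called 513 and 414. The counts by these methods in this and the later lists are to be read against those. The gene called lower was Ddah1, which degrades the methylated arginines that inhibit nitric oxide synthases. Ddah1 had 61.7, 60.3 and 65.8 CPM in sgScramble tumors and 43.1, 46.9, 53.3 and 50.5 CPM in icOVA tumors, without overlap, and a log2 fold change of -0.37 (± 0.09 SE, edgeR adjusted p = 0.0475). It missed the threshold with limma-voom (adjusted p = 0.0512), total counts (0.0509), upper quartile scaling (0.0564) and no filter (0.0615), and in 6 of 7 fits with a tumor left out. The neuronal and endothelial nitric oxide synthases Nos1 and Nos3 had log2 fold changes of 0.70 (± 0.63 SE) and 0.54 (± 0.34 SE), and neither passed the test (adjusted p = 0.504 and 0.342 from edgeR). Nos1 had only 3 to 19 counts per tumor.

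Ido1, the first enzyme of the kynurenine pathway, exceeded the sgScramble range in each of the 4 icOVA tumors but did not pass the adjusted test. It had 240, 218 and 129 CPM in sgScramble tumors 1, 4 and 5 and 347, 384, 295 and 281 CPM in icOVA tumors 15, 16, 18 and 2. The gap between the groups was narrow, and sgScramble tumor 5 stood below the other tumors. The log2 fold change was 0.74 (± 0.22 SE, edgeR adjusted p = 0.0823). DESeq2 called it (adjusted p = 0.00892). Ido2, a related enzyme of lower activity, had 19.8, 19.4 and 13.8 CPM in the sgScramble tumors and 23.1, 36.0, 19.7 and 29.8 CPM in the icOVA tumors. Its groups overlapped at icOVA tumor 18, and its log2 fold change of 0.62 (± 0.23 SE) did not pass (edgeR adjusted p = 0.132).

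Il4i1 was counted at low levels, and most of its annotated exon sequence is shared with a gene on the other strand. Tumors 1, 4 and 5 of the sgScramble group gave 84, 106 and 57 counts, and icOVA tumors 15, 16, 18 and 2 gave 146, 90, 306 and 142. Tumor 18 was the highest and tumor 16 lay within the range of the sgScramble tumors. The log2 fold change was 0.99 (± 0.42 SE, edgeR adjusted p = 0.181), and it was 0.55 without icOVA tumor 18. Of the 4080 bases of Il4i1 exons in the annotation, 3423 overlap exons of Tbc1d17, on the opposite strand, 82 overlap those of Atf5, also on the opposite strand, and 97 overlap those of Nup62, on the same strand. Per the study's methods the library kit marks strand, but the sources used here do not state whether the counting used it. The Il4i1 counts may therefore hold reads of Tbc1d17 and Atf5, or lack reads that fell in shared bases.

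Of 20 further genes of tryptophan use and response, 19 were in the table and 17 were tested, with 1 called higher, 0 lower, near the 5.90% called over all genes, and a median log2 fold change of 0.13 (edgeR). At an unadjusted p below 0.05 there were 9, against 27.2% of all genes. DESeq2 called 1 higher and 3 lower, and limma-voom called 1 higher and 0 lower. The gene called higher was Kmo, which hydroxylates kynurenine. Kmo had 2.45, 3.34 and 2.59 CPM in the sgScramble tumors and 7.40, 4.58, 7.01 and 5.75 CPM in the icOVA tumors. The groups did not overlap, and its log2 fold change was 1.15 (± 0.22 SE, edgeR adjusted p = 0.0329).

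The prostaglandin genes moved in both directions, with Ptges higher and Ptgs1 lower in icOVA tumors. Ptges had 20.3, 25.4 and 18.03 CPM in sgScramble tumors 1, 4 and 5 and 37.0, 41.6, 32.8 and 42.2 CPM in icOVA tumors 15, 16, 18 and 2. The groups were well separated and the log2 fold change was 0.85 (± 0.14 SE), a 1.80-fold rise (edgeR adjusted p = 0.0271). Ptgs1, the constitutive cyclooxygenase, had 17.1, 16.3 and 23.6 CPM in the sgScramble tumors and 11.01, 9.48, 13.2 and 11.8 CPM in the icOVA tumors. All icOVA tumors were below every sgScramble tumor, and sgScramble tumor 5 was the highest. Ptgs1 had a log2 fold change of -0.74 (± 0.17 SE), so that the icOVA tumors had 0.598 of the sgScramble level (edgeR adjusted p = 0.0447). Ptgs2, the inducible cyclooxygenase, had 149, 120 and 94.6 CPM in the sgScramble tumors and 139, 234, 120 and 215 CPM in the icOVA tumors. Only icOVA tumors 16 and 2 were above all sgScramble tumors, and the log2 fold change of 0.54 (± 0.26 SE) did not pass the test (edgeR adjusted p = 0.226). With single tumors left out, Ptges was called in 3 of 7 fits, without sgScramble tumor 4 or icOVA tumor 16 or 18, and Ptgs1 in 2, without sgScramble tumor 4 or icOVA tumor 18, with log2 fold changes from 0.75 to 1.01 and from -0.83 to -0.55.

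The inducible cyclooxygenase exceeded the constitutive one in every tumor, and the ratios of the groups did not overlap. The log2 ratio of Ptgs2 to Ptgs1 in CPM was 3.12, 2.88 and 2.00 for sgScramble tumors 1, 4 and 5 and 3.65, 4.62, 3.18 and 4.17 for icOVA tumors 15, 16, 18 and 2. The groups came nearest at icOVA tumor 18 and sgScramble tumor 1. The difference was 1.24 (two-sided exact permutation p = 0.0571, the smallest it can give, and 0.229 after adjustment over the 4 ratios).

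**Figure D2:**
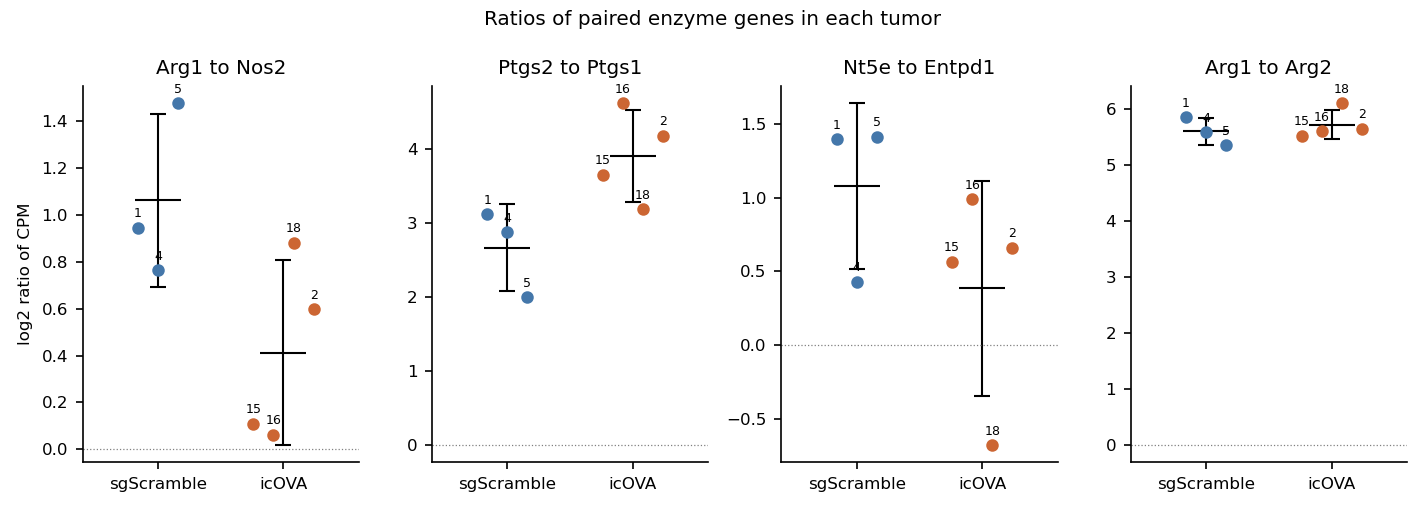
Log2 ratio of CPM (y axis, a separate scale in each panel, dotted line at 0) of Arg1 to Nos2, Ptgs2 to Ptgs1, Nt5e to Entpd1 and Arg1 to Arg2 in each numbered tumor, with the mean ± SD in black, for 3 sgScramble and 4 icOVA tumors. The groups did not overlap for Ptgs2 to Ptgs1 and overlapped for the other ratios.

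Of 22 further prostaglandin and lipid mediator genes, 21 were in the table and 20 were tested, with 1 called higher, against 3.36% of all genes, 1 lower, against 2.54%, and a median log2 fold change of 0.50 (edgeR). At an unadjusted p below 0.05 there were 6, against 27.2% of all genes. DESeq2 called 4 higher and 1 lower, and limma-voom called 2 higher and 1 lower. Ptgds, which makes prostaglandin D from prostaglandin H, was the one called lower and fell the furthest of the pathway genes. Ptgds had 225, 65 and 229 counts in sgScramble tumors 1, 4 and 5 and 7, 34, 5 and 20 counts in icOVA tumors 15, 16, 18 and 2. No icOVA tumor reached the lowest sgScramble tumor, and the log2 fold change was -3.44 (± 0.69 SE, edgeR adjusted p = 0.0355). Alox5ap, which hands arachidonic acid to 5-lipoxygenase for leukotrienes and makes no prostaglandin, was the one called higher, with a log2 fold change of 0.81 (± 0.18 SE, edgeR adjusted p = 0.0449). The other prostaglandin E synthases, Ptges2 and Ptges3, had log2 fold changes of -0.12 (± 0.11 SE) and 0.09 (± 0.07 SE), and neither passed the test (adjusted p = 0.517 and 0.469 from edgeR).

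Of the enzymes from ATP to adenosine, Entpd1 was higher in all 4 icOVA tumors and just missed the threshold, and Nt5e showed no detectable difference. Entpd1 had 59.6, 84.6 and 57.1 CPM in sgScramble tumors 1, 4 and 5 and 117, 92.0, 132 and 104 CPM in icOVA tumors 15, 16, 18 and 2. Tumor 4 was the highest of the sgScramble tumors and came near icOVA tumor 16. The log2 fold change was 0.73 (± 0.17 SE, edgeR adjusted p = 0.0501). DESeq2, limma-voom and a filter of at least 10 counts in every tumor gave adjusted p values of 0.00137, 0.0497 and 0.0469. Nt5e had 157, 114 and 152 CPM in the sgScramble tumors and 174, 182, 82.0 and 164 CPM in the icOVA tumors. The lowest and the highest tumors were both icOVA tumors, 18 and 16, and the log2 fold change was 0.10 (± 0.27 SE, edgeR adjusted p = 0.843). The log2 ratio of Nt5e to Entpd1 was 1.08 ± 0.56 (SD, n = 3) in sgScramble tumors and 0.38 ± 0.73 (SD, n = 4) in icOVA tumors, where tumor 18 had -0.68. The groups overlapped (difference -0.70, two-sided exact permutation p = 0.229, adjusted over the ratios 0.305).

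Of the other adenosine genes, 5 rose. All 25 listed were in the table and 24 were tested, with 5 called higher, against 3.36% of all genes, 0 lower and a median log2 fold change of 0.14 (edgeR). At an unadjusted p below 0.05 there were 13, against 27.2% of all genes. DESeq2 called 9 higher and 2 lower, against 1558 and 1278 of all 17489 genes, and limma-voom called 4 higher and 0 lower. Bst1 and Cd38, which split NAD outside the cell and so feed another route to adenosine, had log2 fold changes of 1.33 (± 0.16 SE) and 0.94 (± 0.12 SE), both with an edgeR adjusted p of 0.0230. Bst1 had 33.1, 38.6 and 30.4 CPM in the sgScramble tumors and 82.4, 104, 66.5 and 89.7 CPM in the icOVA tumors. Cd38 had 59.8, 67.1 and 63.1 CPM in the sgScramble tumors and 130, 124, 97.9 and 135 CPM in the icOVA tumors. In both genes the groups were far apart. The adenosine receptors Adora2a and Adora2b, which raise cyclic AMP in leukocytes, had log2 fold changes of 1.03 (± 0.22 SE, edgeR adjusted p = 0.0392) and 0.98 (± 0.18 SE, edgeR adjusted p = 0.0315). Panx1, a channel through which cells release ATP, rose by 0.51 on the log2 scale (± 0.12 SE, edgeR adjusted p = 0.0489). Panx1 missed the threshold with limma-voom (adjusted p = 0.0539), total counts (0.0553), upper quartile scaling (0.0552) and no filter (0.0579), and in 6 of 7 fits with a tumor left out.

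**Figure D3:**
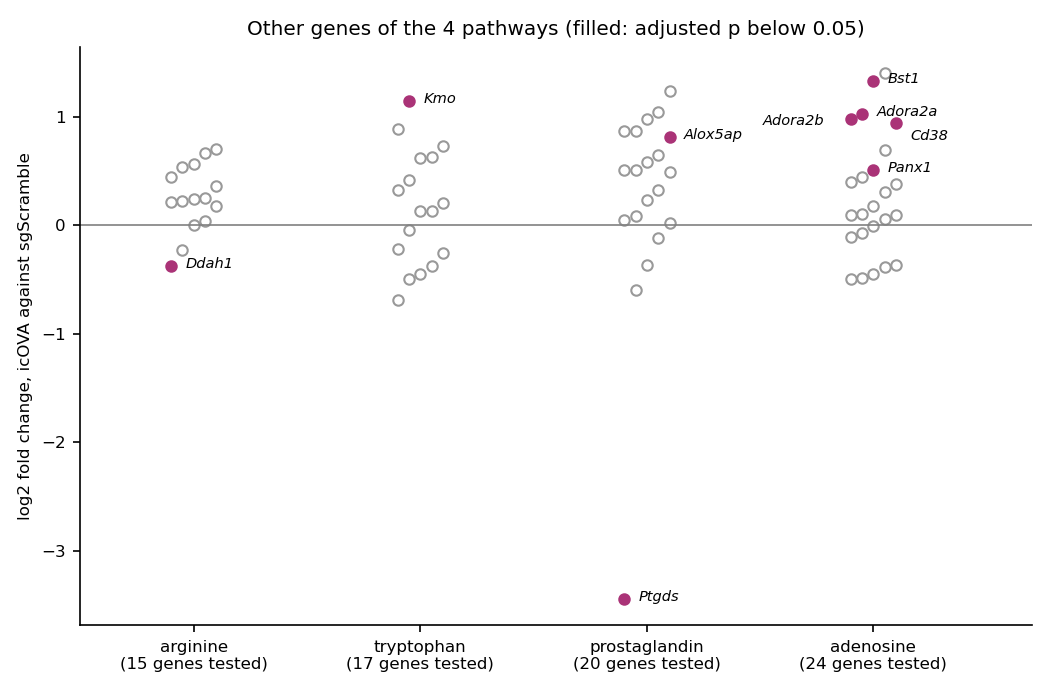
Log2 fold change of icOVA against sgScramble tumors (y axis) for each tested gene of the 4 pathway lists, 15, 17, 20 and 24 genes, with the 9 enzyme genes left out. Filled and named points have an adjusted p below 0.05, and Ptgds at -3.44 lies far below the others.

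Genes for the signals known to induce these enzymes were read beside them. Interferon gamma and interleukin-1 with tumor necrosis factor induce Nos2, Ido1, Ptgs2 and Ptges in many cells, and interleukin-4, interleukin-13 and hypoxia induce Arg1. Of 11 cytokine genes listed, Il4 was not in the count table. Of the 10 tested, 2 were called higher, Ifng and Il10, against 3.36% of all genes, and 0 lower (edgeR). At an unadjusted p below 0.05 there were 6, against 27.2% of all genes, while DESeq2 called 6 higher and limma-voom 1. Ifng had 11.4, 11.7 and 8.69 CPM in the sgScramble tumors and 28.0, 22.1, 15.1 and 24.5 CPM in the icOVA tumors, and its log2 fold change was 1.08 (± 0.22 SE, edgeR adjusted p = 0.0353, limma-voom adjusted p = 0.0513). Tumor 18 was the lowest icOVA tumor for Ifng and Nos2, but also for OVA, Ptges, Ptgs2 and Nt5e. It was the highest for Il4i1, Entpd1 and Ptgs1. A link between Ifng and Nos2 was not tested. Il10, an inhibitory cytokine, was counted 12, 14 and 7 times without icOVA and 47, 24, 40 and 32 times with it, with a log2 fold change of 1.62 (± 0.34 SE, edgeR adjusted p = 0.0380). Of 11 interferon gamma response genes, 3 were called higher, against 3.36% of all genes, and 0 lower (edgeR). DESeq2 called 4 higher and limma-voom 3, and 6 had an unadjusted p below 0.05, against 27.2% of all genes. The 3 called by edgeR were Cd274, which encodes PD-L1, Irf8, a transcription factor of myeloid cells, and Socs1, an inhibitor of cytokine signaling. Their log2 fold changes were 0.93 (± 0.19 SE), 0.79 (± 0.13 SE) and 0.44 (± 0.10 SE). Of 13 genes of alternative macrophage activation, the program in which Arg1 is a marker, 0 were called (edgeR). Their log2 fold change was above 0 for 10 and below 0 for 3, with a median of 0.43. Over all genes tested it was above 0 for 49.4%. DESeq2 called 3 higher and limma-voom 0, and 6 had an unadjusted p below 0.05, against 27.2% of all genes. Of 10 hypoxia genes 0 were called (edgeR), with 0 at an unadjusted p below 0.05 and 0 by DESeq2 and limma-voom.

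Markers of some leukocytes were also higher in the icOVA tumors. Over all genes tested in edgeR, 3.36% were called higher, 2.54% lower, and 27.2% had an unadjusted p below 0.05. The marker counts below are to be set beside these shares. The summed level of 8 macrophage markers ran from 1006 to 1388 CPM in sgScramble tumors and from 1371 to 2077 CPM in icOVA tumors, with 2 of 8, Cd68 and Mertk, called higher, and no marker at 0 in any tumor. All 6 T cell markers were called higher, with sums of 49.1 to 69.3 and 106 to 175 CPM, and 1 of 7 dendritic cell markers, Siglech, was called, with sums of 22.1 to 30.6 and 30.2 to 63.2 CPM. Of the neutrophil markers 0 of 6 tested were called (edgeR, 2 at an unadjusted p below 0.05, 1 by DESeq2 and 0 by limma-voom), with sums of 55.2 to 112 and 88.3 to 131 CPM. The 6 epithelial cancer cell markers, Krt19 among them, summed to 4358 to 4562 CPM in sgScramble tumors and 2875 to 4787 CPM in icOVA tumors, with 0 called and 0 at an unadjusted p below 0.05 in edgeR and 0 by DESeq2 and limma-voom. Fibroblast markers varied widely within groups, from 4295 to 10694 and from 3857 to 23277 CPM, and icOVA tumor 18, where Nt5e was lowest and Il4i1 highest, had the highest fibroblast and the lowest epithelial sum. Mast cell markers summed to 21.9 to 145 and 77.9 to 289 CPM, with 0 of 6 called (edgeR, 1 at an unadjusted p below 0.05 and 0 by DESeq2), and endothelial markers to 151 to 235 and 190 to 460 CPM, with 0 of 5 called (edgeR, 5 at an unadjusted p below 0.05 and 4 by DESeq2). Of the hepatocyte markers, 2 of 5, Alb and Fga, were called lower, with sums of 46.2 to 112 CPM against 1.47 to 29.2 CPM. All 5 had a log2 fold change below 0, and 2 were at 0 in at least 1 tumor. In 4 of the 5 every icOVA tumor was below every sgScramble tumor, against 13.3% of all genes. The part of any of these cells in the enzyme values was not tested. Ptprc, the gene of the pan-leukocyte protein CD45, had 116 to 175 CPM in sgScramble tumors and 258 to 363 CPM in icOVA tumors, which is a log2 difference of 1.08 (± 0.18 SE, edgeR adjusted p = 0.0271).

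The enzyme genes were also read relative to these leukocyte genes. Since the leukocyte genes were themselves higher in the icOVA tumors, dividing by them lowers nearly the whole table, and the signs and calls below follow in part from the divisor. Scaling each library to its summed macrophage markers moved the median log2 fold change of all genes from -0.0050 to -0.47, with 81 of 17489 genes called higher and 820 lower, and scaling to Ptprc moved it to -1.098, with 70 called higher and 14053 lower. With macrophage scaling, Nos2 had a log2 fold change of 0.67 (edgeR adjusted p = 0.151), Ptges of 0.42 (adjusted p = 0.185) and Arg1 of -0.0014 (adjusted p = 0.997), and Ptgs1 had -1.24 (adjusted p = 0.0221). With Ptprc scaling, Nos2 had 0.06, Ptges -0.19, Nt5e -1.01 and Ptgs1 -1.88, to be read against the median of -1.098, and no call is drawn from them. Entpd1 amounted to 4.89% to 6.09% of the macrophage marker sum in sgScramble tumors and to 6.33% to 7.20% in icOVA tumors, which did not overlap, but its log2 fold change on this scale, 0.26, did not pass the test (edgeR adjusted p = 0.284). Ptgs1 amounted to 1.17% to 2.02% and to 0.630% to 0.820%, which did not overlap. The ranges of the other 7 overlapped, among them Nos2 with 8.94% to 17.3% and 9.66% to 27.9%. The share of all genes without overlap on this measure was not computed, so no result is drawn from these counts.

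**Figure D4:**
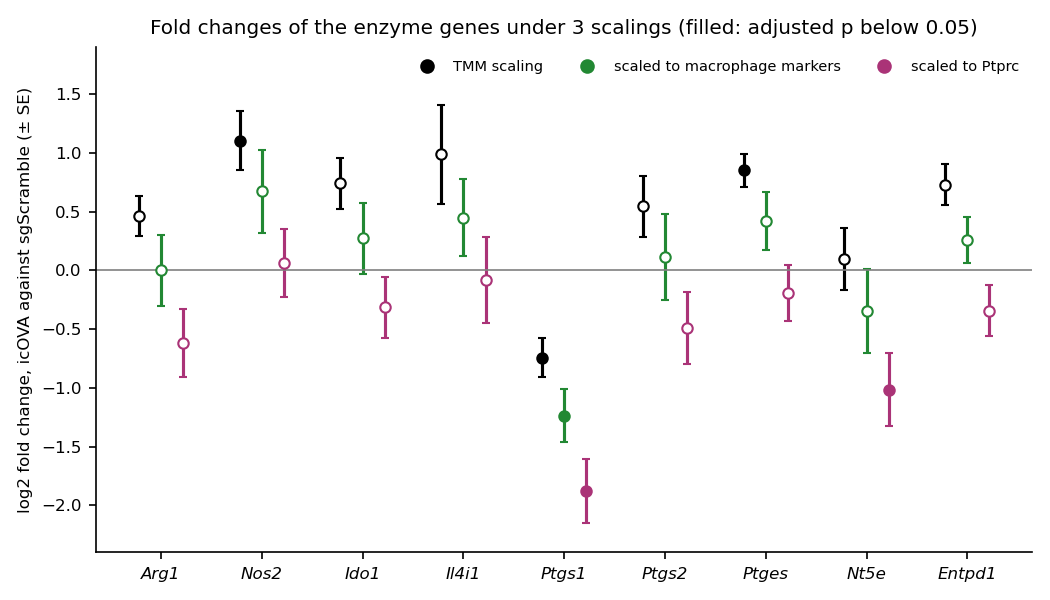
Log2 fold change ± SE (y axis) of each enzyme gene in icOVA against sgScramble tumors with TMM scaling (black), with libraries scaled to the 8 macrophage markers (green) and with libraries scaled to Ptprc (purple), filled where the adjusted p is below 0.05. All 9 genes moved down from TMM to macrophage to Ptprc scaling, as did the median of all genes, from -0.0050 to -0.47 and -1.098.

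The genes whose pattern over the 7 tumors was closest to each enzyme gene were found by the root mean square difference of log2 CPM, each gene being centered on its own mean, among 12966 other genes. For Nos2 they were Ccrl2, Acod1 and Cd274, at 0.12, 0.13 and 0.14. Acod1 makes itaconate in activated macrophages. For Ptges they were Il1rn, the interleukin-1 receptor antagonist, Ripor2 and Srgn, at 0.05, 0.08 and 0.10. For Entpd1 they were Btk, Laptm5 and Il10ra, at 0.03, 0.04 and 0.06. For Ptgs1 they were Pigyl, Fam210b and Arvcf, at 0.09, 0.11 and 0.11. Ptgs2 was nearest to Ido2 (0.12), Ifi44 (0.13) and Gm8979 (0.16), Ido1 to Acan (0.05), Gm4070 (0.14) and Gm5431 (0.15), and Arg1 to Gm31718 (0.10), Tnfrsf9 (0.13) and Dusp5 (0.14). Nt5e was nearest to Pdk1 (0.10), Tns4 (0.12) and Kif5c (0.12), and Il4i1 to Adam11 (0.12), Iffo1 (0.16) and Kit (0.16). For scale, the SD over the 7 tumors of the log2 CPM of the 9 enzyme genes was 0.69 for Nos2, 0.73 for Il4i1 and 0.33 for Arg1. These values describe the same tumors that the group comparison used.

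The number of calls depended on which tumors entered. Leaving out sgScramble tumor 4, icOVA tumor 16 or icOVA tumor 18 gave 862, 1014 and 615 genes higher and 681, 716 and 492 lower. With all tumors there were 588 and 444. In each of these fits 2 enzyme genes were higher, but not the same ones. They were Ptges and Entpd1 without sgScramble tumor 4 or icOVA tumor 16, and Nos2 and Ptges without icOVA tumor 18. Leaving out sgScramble tumor 1, sgScramble tumor 5 or icOVA tumor 15 left 0 of all genes called (edgeR, with 3087, 2936 and 3415 at an unadjusted p below 0.05), and leaving out icOVA tumor 2 left 6 higher and 2 lower. In the last 4 of these fits none of the 9 enzyme genes was called. OVA itself missed the threshold in the fits where 0 genes passed. Its log2 fold changes there were, in the same order, 6.25, 5.92 and 6.05 (edgeR adjusted p = 0.0776, 0.111 and 0.0725). A call lost in those fits therefore does not set an enzyme gene apart from other genes. With icOVA tumor 2 left out, OVA still passed (5.91, edgeR adjusted p = 0.0356). The other list genes named as called also lost the call in most fits. Ddah1 and Panx1 were called in 1 of 7, and Alox5ap, Adora2a, Il10, Cd274 and Socs1 in 2 of 7. Kmo, Ptgds, Bst1, Cd38, Adora2b, Ifng and Irf8 were called in 3 of 7. The direction of 8 of the 9 held in each of the 7 fits, and that of Nt5e turned, to -0.0305 without sgScramble tumor 4 and -0.0086 without icOVA tumor 16.

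**Figure D5:**
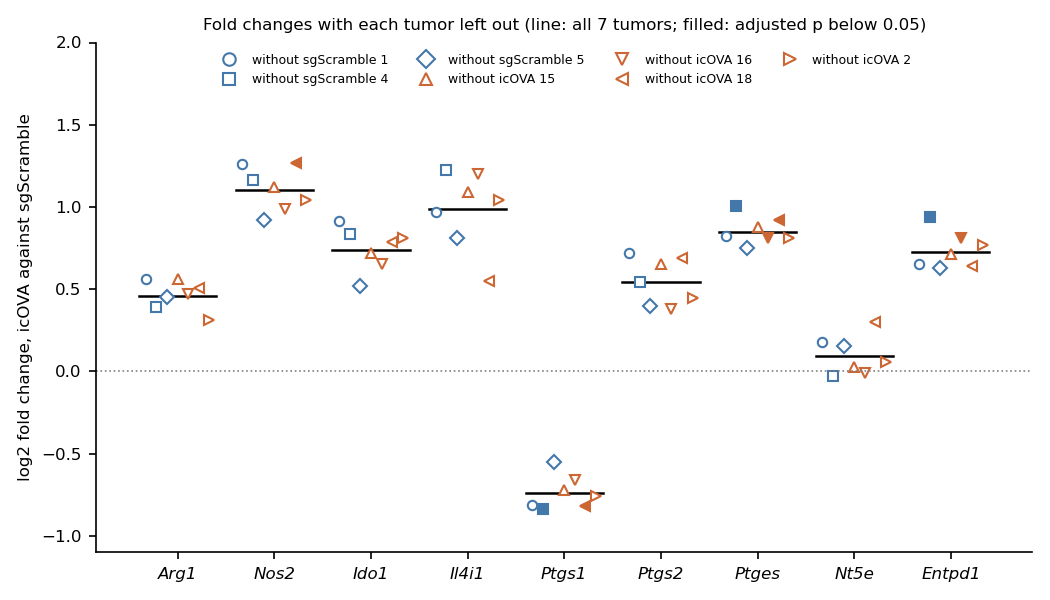
Log2 fold change (y axis) of each enzyme gene with each of the 7 tumors left out in turn (marker shape for the tumor, blue for sgScramble and orange for icOVA), beside the value with all tumors (black line), filled where the adjusted p is below 0.05. The values of Nos2, Ptges and Entpd1 stayed above 0 and those of Ptgs1 below 0 in all 7 fits, and most points are open.

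The 9 genes lie on 8 chromosomes of GRCm38 in the GENCODE M21 annotation. Arg1 is at chr10:24915221-24927484, Nos2 at chr11:78920787-78960254, Ido1 at chr8:24584136-24597009 and Il4i1 at chr7:44816387-44840809. Ptgs1 is at chr2:36230426-36252272, Ptges at chr2:30889471-30929863, with the RefSeq start used for its window inside that span, and Ptgs2 at chr1:150100031-150108227. Nt5e is at chr9:88327197-88372092 and Entpd1 at chr19:40612366-40741602. Reads were counted over whole genes, so isoforms were not told apart. Apart from Il4i1, the 1 member whose exons overlap those of another gene is Ptgs1, which shares 148 exon bases with Gm43621 on the opposite strand.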

How the data were processed

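RNA of 7 s/c tumors was sequenced with single reads. The labels give polyA RNA and an Illumina TruSeq preparation, and the study's methods name the stranded total RNA guide of that kit, used with modifications. The authors deposited raw counts of reads per gene, whole numbers without normalization, in 22629 rows, of which 22414 were matched to a gene symbol by their Ensembl ID. Per the labels the genome was mm10. The aligner, counting tool and annotation are not given in the sources used here. Totals per tumor were 30904855 to 37510591 counts. No 2 tumors had identical counts, and tumor numbers were not shared between groups.

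Counts were filtered by filterByExpr (minimum count 10, minimum total 15), scaled by TMM and tested with edgeR 4.0.16 in R 4.3.3 without covariates. CPM uses TMM library sizes, and log2 CPM a prior count of 2. The SE is the size of the log2 fold change divided by the square root of F. Levels per kilobase use the union of exons in GENCODE M21. Ratios were tested exactly with scipy 1.17.1. DESeq2 1.42.0, limma-voom 3.58.1, other scalings and filters, robust dispersion and leaving out each tumor were the alternatives. The scripts were tested on simulated data.

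Named were the 9 enzyme genes, OVA, Ptprc, the near relatives Arg2, Ido2, Nos1, Nos3, Ptges2 and Ptges3, the 3 largest changes among called genes of each list, and the 3 genes nearest in pattern to each enzyme gene among those with at least 700 counts. Cd38 and Panx1 outside this rule were named to complete a count of 5, and the called markers Cd68, Mertk, Siglech, Alb and Fga likewise, with Krt19 and the genes that share Il4i1 or Ptgs1 exons, after their values were seen. The members, lists and motifs were chosen with earlier results of these data known.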

Additional observations from a re-analysis of the deposited data

Results flagged for a closer look

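Among the 4 icOVA tumors, Nt5e in tumor 18 stood apart, with a log2 CPM of 6.36 where tumors 15, 16 and 2 had 7.44, 7.51 and 7.36, and the gap over the range was 0.870, past the limit that Dixon's test sets for 4 samples. Tumor 18 also had the lowest epithelial and the highest fibroblast marker sum of these tumors, and the part of these in the Nt5e value was not tested. Without it the log2 fold change of Nt5e was 0.30 (adjusted p = 0.176 from edgeR).

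Ptges3 in icOVA tumor 2 stood apart as well, at 219 CPM against 194, 198 and 195 CPM, with a gap over range of 0.851 in log2 CPM. These were 2 of 33 values examined, and about 1 in 20, or 1.6, would be expected by chance.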

How the results depend on the processing

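With DESeq2, 1558 genes were called higher and 1278 lower, against 588 and 444 with edgeR, 4 of the enzyme genes higher against 2, and 15 of the other pathway genes higher and 7 lower against 7 and 2. The pathway genes called lower were 1 with limma-voom, 1 without a filter and 1 with at least 10 counts in every tumor. Without a filter 0 enzyme genes were called lower, as Ptgs1 had an adjusted p of 0.0513. Nos2 had an adjusted p of 0.0505 with limma-voom. Scaled to Ptprc, 70 genes were higher and 14053 lower, 0 enzyme genes higher and 2 lower, and 0 pathway genes higher and 48 lower. Scaled to the macrophage markers, 81 genes were higher and 820 lower, 0 enzyme genes higher, and 0 pathway genes higher and 5 lower. These 2 scalings divide by genes that were themselves higher in icOVA tumors, so calls and signs under them follow in part from the divisor.

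Directions that turned under Ptprc scaling, as log2 fold changes, were those of Arg1 (-0.62), Ido1 (-0.32), Il4i1 (-0.083), Ptgs2 (-0.49), Ptges (-0.19), Nt5e (-1.01), Entpd1 (-0.34), Arg2 (-0.72), Nos1 (-0.27), Nos3 (-0.55), Ido2 (-0.41), Ptges3 (-1.01), Alox5ap (-0.26), Cd38 (-0.14), Adora2a (-0.043), Adora2b (-0.089), Panx1 (-0.60), Irf8 (-0.30), Cd274 (-0.13) and Socs1 (-0.64). Under macrophage scaling they were those of Arg1 (-0.0014), Nt5e (-0.35), Arg2 (-0.066), Ptges3 (-0.38) and Socs1 (-0.015).

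With each tumor left out, genes called higher ran from 0 to 1014 and lower from 0 to 716, enzyme genes higher from 0 to 2 and lower from 0 to 1, and pathway genes higher from 0 to 12 and lower from 0 to 4. Nt5e turned to -0.031 without sgScramble tumor 4 and to -0.0086 without icOVA tumor 16, and was at most 0.30. The difference in the log2 ratio of Arg1 to Arg2 turned to -0.0016 without sgScramble tumor 5 and to -0.0095 without icOVA tumor 18, and was at most 0.25. The differences ran from -0.81 to -0.44 for Arg1 to Nos2, from 0.91 to 1.48 for Ptgs2 to Ptgs1 and from -1.02 to -0.34 for Nt5e to Entpd1. Of 208 values of single genes in these fits, 121 held in direction and call, 83 lost the call, 2 gained it and 2 turned. The 121 include values of genes not called with all tumors, which had no call to lose. With all tumors and the other settings, apart from these 2 scalings, 191 of 207 held in direction and call. The causes of these shifts, the smaller number of tumors among them, were not tested. Each tumor number occurs in 1 group. No paired analysis was possible because numbers differ between groups.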
